A study of Mus musculus with 10 samples.

Results

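The cadherins and protocadherins are calcium-dependent adhesion receptors of neurons, and their transcripts were followed in retinal ganglion cells (RGCs) before and after optic nerve crush (ONC). The genes were chosen by name alone: every symbol that begins with Pcdh, or that reads Cdh followed only by digits, with at least 50 unique molecular identifiers (UMIs, each a tag that marks 1 captured RNA molecule) summed over all 10 libraries. Of 34254 genes listed in the files, 94 had such a symbol and 80 reached 50 UMIs. The lowest of those 80 were Pcdha8 with 70, Pcdhgb7 with 63 and Pcdhgb1 with 53 UMIs, and the nearest genes below the limit were Pcdhgb2 with 45, Pcdhgb8 with 42 and Cdh23 with 36. The 80 genes comprised 4 of 5 type I cadherins, 11 of 13 type II cadherins, Cdh13 from the 5 remaining Cdh genes, all 4 delta-1 and all 5 delta-2 protocadherins, Pcdh15 and Pcdh20 from the 3 remaining non-clustered protocadherins, and 13, 21 and 19 isoforms of the alpha, beta and gamma clusters.

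The RGCs came from wild-type 129S1/SvImJ mice of both sexes at 12 weeks of age, and no transgene or Cre was part of the labelled design. The uninjured group had 6 libraries with 1683 cells, and the injured group, taken 2 weeks after ONC, had 4 libraries with 1609 cell barcodes. The uninjured number equals that in the study's methods, whereas the injured number is above the one given there. Each batch pooled 10 retinas, from which RGCs were captured by Thy1 immunopanning after depletion of macrophages and, per the study's methods, of amacrine cells, so that a library is a pool and not an animal. Injured libraries 3 and 4 shared 421 cell barcodes and were averaged into 1 sample, which left 6 uninjured and 3 injured samples. UMIs of mCherry, a reporter of viral vectors, were counted in all but 74 cells of injured library 3 and all but 74 cells of injured library 4. They were absent from 311 of 338 cells of injured library 1, 232 of 273 of injured library 2 and all uninjured cells. Because nothing states that the libraries came from separate groups of animals, the p-values measure only the spread between these samples.

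The libraries held 2839693 to 23180399 UMIs in the uninjured and 4698799 to 8860536 in the injured group, and depth moved with the condition. The median UMIs per cell ran from 20437 to 34337 in uninjured and from 11257 to 14695 in injured libraries. The median share of UMIs from the nuclear RNA Malat1 ran from 1.72% to 4.82% and from 6.37% to 7.78%. That of ribosomal protein genes ran from 2.38% to 4.26% and from 4.97% to 5.70%, again without overlap. That of mitochondrial genes ran from 2.84% to 5.63% and from 1.48% to 3.15%. By library sums the cells carried RGC markers: the summed level of 9 pan-RGC markers was 6517 to 8803 CPM (UMIs scaled to the same total in each library) in uninjured and 4723 to 5802 CPM in injured samples, with 1 called higher and 6 lower after injury. Amacrine markers summed to 78.8 to 293 CPM in uninjured and 281 to 388 CPM in injured samples, with 2 of 8 tested higher after injury and Chat below 1 CPM in every sample. Endothelial markers summed to 32 to 55.1 and 10.5 to 16.8 CPM, both tested ones being lower, with Cldn5 and Tie1 below 1 CPM in every sample. UMIs of 3 or more markers of another retinal class were held by 721 of 1683 uninjured and 384 of 1609 injured cells. These were counted at full depth, which was higher in uninjured cells, so that the 2 numbers are not at equal depth. Of 8 tested Müller glia markers, several of which RGCs also express, 5 were higher and 2 lower, and the sums overlapped. Of 4 tested horizontal cell markers 1 was higher and 2 lower, and their sums, 163 to 303 and 200 to 231 CPM, overlapped. The part of depth, of the Malat1, ribosomal and mitochondrial shares and of markers of other cells in the changes below was not tested. The counts of members changed after injury were, however, repeated in cells without such markers, at equal depth and within a band of Malat1 share. That band, 3% to 5% Malat1, held only 7 and 8 cells of uninjured libraries 5 and 6, against 278 of uninjured library 4.

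Classical cadherins, of types I and II, bind the same or a related cadherin on the neighbouring cell and hold the actin cytoskeleton through catenins. Delta protocadherins are single genes whose long cytoplasmic tails bind, in the delta-2 group, the WAVE complex that builds branched actin, and they sort axons and set where synapses form. The clustered protocadherins are chosen almost at random from 3 tandem arrays, so that each neuron bears its own small set of isoforms, by which the branches of a cell recognise and avoid each other. In the retina, cadherins of type II are known to differ between RGC types and to guide their arbors to particular layers.

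The bases just before the annotated start sites are shown for 2 members that rose and 2 that fell after injury, so that the start regions of genes moving in opposite directions can be set side by side. The window of Pcdh15 belongs to an internal start site: matched to GRCm39, it lies 723 kb inside the annotated gene, where 29 of its 43 transcripts begin within 100 bases, whereas those of Cdh20, Pcdh8 and Pcdh10 lie at the annotated gene start. They come from the RefSeq promoter table in build GRCm38.p6, which matched 20 of the 80 members, all of them non-clustered, and each run gives the 150 bases before the start site, 5′ to 3′ on the gene's own strand. The same window was read for Pcdh18 and Pcdh20, which fell further than Pcdh10 and are not printed. Capitals mark TATAAA, the TATA box, and CCAAT, the binding sequence of nuclear factor Y, each searched on both strands after the sequences were seen.
Pcdh15, chr10:73821717-73821866 on the plus strand: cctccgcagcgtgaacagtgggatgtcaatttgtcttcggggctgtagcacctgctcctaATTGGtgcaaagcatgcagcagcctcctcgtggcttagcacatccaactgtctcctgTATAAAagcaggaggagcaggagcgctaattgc
Cdh20, chr1:104768370-104768519 on the plus strand: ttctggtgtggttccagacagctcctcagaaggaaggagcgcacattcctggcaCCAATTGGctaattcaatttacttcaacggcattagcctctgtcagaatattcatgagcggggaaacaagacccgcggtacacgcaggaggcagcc
Pcdh8, chr14:79771313-79771462 on the minus strand: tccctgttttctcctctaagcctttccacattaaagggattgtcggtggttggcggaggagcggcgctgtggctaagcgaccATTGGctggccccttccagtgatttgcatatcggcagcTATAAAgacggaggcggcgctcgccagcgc
Pcdh10, chr3:45378248-45378397 on the plus strand: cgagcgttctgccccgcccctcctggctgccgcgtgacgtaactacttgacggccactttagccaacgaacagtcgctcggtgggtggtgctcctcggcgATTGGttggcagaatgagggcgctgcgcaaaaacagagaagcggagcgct

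TATAAA lay 33 bases before that internal start of Pcdh15 and 30 before that of Pcdh8, and so was present in a gene that rose and in one that fell; 8.08% of 27025 genes with an entry had it within the same window. CCAAT was found in the 4 printed windows and in that of Pcdh18 but not in that of Pcdh20, against 25.3% of all genes. The motif TGANTCA of AP-1 was held by 4.27% of all genes and by none of the 6 windows.

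The motif TGACGTCA of CREB was held by 1.44% of all genes and by none of the 6 either, which says only that these letters are not in these windows.

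At 2 weeks post-ONC the family was changed in both directions, with many more members downregulated than upregulated. Of 70 members with enough counts to test, 26 were lower and 3 higher in injured RGCs (edgeR quasi-likelihood test on UMIs summed per library, Benjamini-Hochberg adjusted over 14234 genes), and 41 passed in neither direction. Over all genes tested 22.7% were lower and 21.3% higher. The number lower depended on the fit. Of the 26, 16 were called again with similar libraries summed, and 10 of the 17 with a value in cells of 3% to 5% Malat1. The median log2 fold change was -0.63 over the tested members and -0.03 over all genes. In 24 of the 70 the ranges of the 2 conditions were separate, as they were in 42.9% of all genes. The summed level of the 80 members was 4252 ± 780 CPM (SD, n = 6) in uninjured and 4952 ± 110 CPM (n = 3) in injured samples, and these ranges overlapped.

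All CPM values below count 3′-end UMIs and are not divided by gene length, so that they compare samples of 1 gene and not genes with each other. The 10 members not tested for lack of counts were Cdh1 and 9 clustered isoforms.

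**Figure D1:**
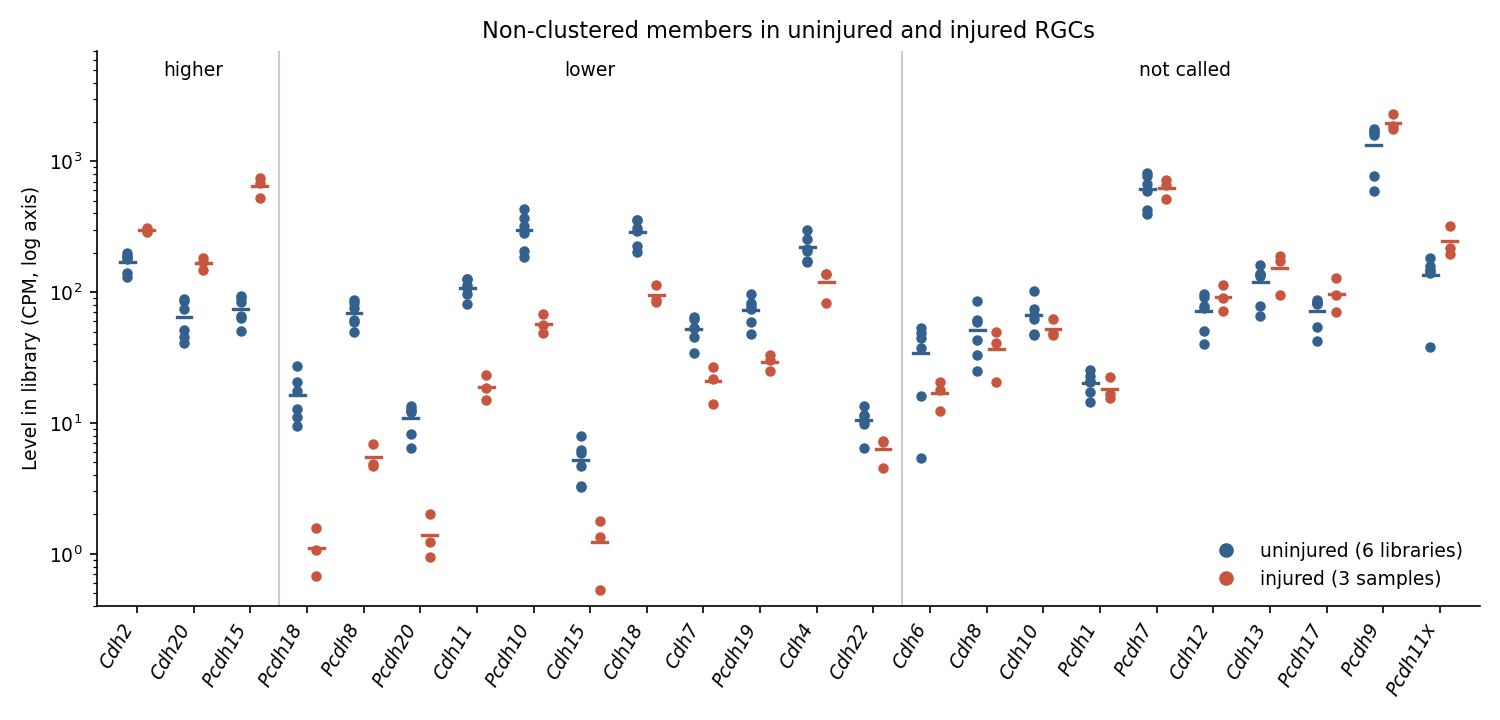
Level of each non-clustered member with a mean of at least 5 CPM in either condition, in CPM on a log axis; blue points are the 6 uninjured libraries, red points the 3 injured samples and short lines the means. Pcdh15 at 520 to 742 CPM after injury lies above its uninjured range, whereas Pcdh8, Pcdh18 and Pcdh20 lie far below theirs.

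Pcdh15, known from hair cells as a tip link cadherin and carried by a gene of 1550 kb (chr10:72935174-74485569, plus strand, GRCm39), was the member with the largest rise. It was measured at 50.9, 74.4 and 92.8 CPM (lowest, median and highest of 6) in uninjured libraries and at 742, 688 and 520 CPM in injured 1, injured 2 and the mean of injured 3 and 4. Every injured sample lay above every uninjured one, and the mean was 8.75 times as high, with a log2 fold change of 3.12 ± 0.20 (SE, adjusted p = 3.43e-07, edgeR). It kept its call under all 28 alternatives. The gene shares its locus with 1 counted gene on each strand, and the antisense one drew 969 UMIs of its own. Whether intronic reads were counted is not known here, and the levels of long genes such as Pcdh15, Pcdh9 and Cdh18 hang on it.

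Cdh20, a type II cadherin, was the other clear rise. Its lowest, median and highest uninjured levels were 41.2, 62.6 and 88.6 CPM, and the injured levels 183, 169 and 148 CPM. The groups did not overlap, and the log2 fold change was 1.36 ± 0.24 (adjusted p = 0.000655, edgeR).
Cdh2, N-cadherin, the type I cadherin of most neurons, was measured at 132, 183 and 201 CPM in uninjured and at 309, 289 and 291 CPM in injured samples. The injured samples were close to each other and above all 6 uninjured ones, with a log2 fold change of 0.80 ± 0.16 (adjusted p = 0.0014, edgeR). With the mean of injured 3 and 4 as the only injured sample, a fit in which that sample is assumed to vary like the uninjured libraries, the log2 fold changes were 1.2 and 0.78 and neither gene passed (adjusted p = 0.0541 and 0.0614, edgeR).

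The delta-2 protocadherins had a median log2 fold change of -2.39 over 5 members, against -0.03 over all genes tested, of which 22.7% were lower: Pcdh8, Pcdh10, Pcdh18 and Pcdh19 were lower after injury, and Pcdh17 was not called. Pcdh8, also known as arcadlin and induced by synaptic activity, was measured at 49.6, 68.4 and 87.3 CPM in uninjured libraries and at 4.90, 6.96 and 4.70 CPM in injured samples. The injured mean was 12.6-fold lower, with no overlap (log2 fold change -3.66 ± 0.25, adjusted p = 4.93e-07, edgeR). The gene is short, 4.54 kb on chr14:80004215-80008752, and the antisense gene across it had 0 UMIs.

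Pcdh18 was measured at 9.52, 15.1 and 27.2 CPM before and at 1.58, 0.674 and 1.07 CPM after injury, a mean 14.8-fold lower (log2 fold change -3.85 ± 0.44, adjusted p = 2.88e-05, edgeR). Pcdh10, OL-protocadherin, which is needed for the growth of striatal axons, was measured at 186, 304 and 435 CPM before and at 67.6, 55.7 and 48.6 CPM after injury (log2 fold change -2.39 ± 0.29, adjusted p = 4.41e-05, edgeR). Neither gene overlapped between the groups. Pcdh10 has antisense neighbours with 2896 UMIs, and whether the counting used the strand is not given in the sources used here. Pcdh19, the gene of an X-linked epilepsy, was measured at 47.8, 76.4 and 96.0 CPM before and at 24.9, 30.1 and 33.0 CPM after injury, and fell 2.49-fold without overlap (log2 fold change -1.31 ± 0.22, adjusted p = 0.000431, edgeR). In the fit with injured 3 and 4 as the lone injured sample its log2 fold change was -1.13 and did not pass (adjusted p = 0.0564, edgeR). Pcdh17 was at 42.1, 81.8 and 86.8 CPM before and 94.4, 128 and 70.1 CPM after injury, and the ranges overlapped (adjusted p = 0.18).

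Pcdh20, which falls outside the delta groups, was also lower. It was measured at 6.40, 12.3 and 13.5 CPM in uninjured and at 1.23, 2.02 and 0.94 CPM in injured samples, a mean 7.84-fold lower with no overlap (log2 fold change -3.04 ± 0.34, adjusted p = 2.47e-05, edgeR). It lies on the same chromosome as Pcdh8, Pcdh17 and Pcdh9, and before injury it was higher in cells with Foxp2, as given below.

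Among the type II cadherins, 4 of 11 were lower (Cdh7, Cdh11, Cdh18 and Cdh22), 1 was higher (Cdh20) and 6 were not called, beside 22.7% lower and 21.3% higher over all genes. Cdh22, at 6.43 to 13.5 CPM before and 4.49 to 7.25 CPM after injury, overlapped between the groups (adjusted p = 0.0359, edgeR) and lost its call in 13 of 28 alternatives. Cdh11, a cadherin also found on mesenchymal cells, was measured at 80.9, 111 and 126 CPM before and at 18.6, 23.1 and 14.9 CPM after injury, 5.75-fold lower (log2 fold change -2.53 ± 0.20, adjusted p = 1.57e-06, edgeR). Cdh18, at 203, 300 and 356 CPM before and 87.2, 83.8 and 114 CPM after injury, fell 3.04-fold (log2 fold change -1.61 ± 0.22, adjusted p = 0.000112, edgeR). Neither gene overlapped between the groups, but within cells of 3% to 5% Malat1 the log2 fold change of Cdh18 was -0.52 and did not pass (adjusted p = 0.229).

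Cdh7 was measured at 34.2, 53.4 and 64.1 CPM before and at 14, 21.6 and 26.7 CPM after injury, with no overlap (log2 fold change -1.33 ± 0.24, adjusted p = 0.000788, edgeR). Within the Malat1 band, where uninjured libraries 5 and 6 had 7 and 8 cells, its log2 fold change was -0.05 (adjusted p = 0.931, edgeR). With injured 3 and 4 as the lone injured sample the log2 fold change was -0.96. Cdh6, which marks direction-selective RGCs, was at 5.39, 40.8 and 53.3 CPM before and 12.4, 17.7 and 20.7 CPM after injury. Uninjured library 2, at 16 CPM, lay within the injured range and library 1, at 5.39 CPM, below it, and the gene was not called (adjusted p = 0.125). Cdh12 was at 40.1, 77.2 and 96.4 CPM before and 114, 72.3 and 90.5 CPM after injury, with overlap. Cdh8, Cdh9, Cdh10, Cdh12 and Cdh24 were not called either, with log2 fold changes of -0.71 to 0.34.

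All 3 tested type I cadherins changed, 1 up and 2 down, where 21.3% of all genes were higher and 22.7% lower. Cdh4, R-cadherin, first described in the retina, was measured at 170, 211 and 298 CPM before and at 137, 137 and 82.6 CPM after injury, 1.85-fold lower without overlap (log2 fold change -0.89 ± 0.23, adjusted p = 0.00766, edgeR). It lost its call with injured 1 and 2 as the only injured samples and in injured cells without mCherry. Cdh15, M-cadherin, known from muscle, was low throughout, at 3.23, 5.30 and 7.93 CPM before and 0.525, 1.80 and 1.34 CPM after injury, and fell (log2 fold change -2.05 ± 0.45, adjusted p = 0.00289, edgeR). With injured 3 and 4 as the lone injured sample its log2 fold change was -1.89 and did not pass (adjusted p = 0.0714, edgeR). Cdh13, T-cadherin, which has no cytoplasmic tail, was at 65.3, 135 and 162 CPM before and 190, 173 and 95.7 CPM after injury; it was not called and the ranges overlapped.

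None of the 4 delta-1 protocadherins was called by edgeR at an adjusted p under 0.05, and their values spread widely between libraries. Pcdh9 was measured at 593, 771, 1753, 1663, 1669 and 1584 CPM in uninjured libraries 1 to 6 and at 1864, 1754 and 2302 CPM after injury. All injured samples were above all uninjured ones and libraries 1 and 2 stood far below the other 4. Its log2 fold change was 0.56 ± 0.33 (adjusted p = 0.188, edgeR), and a two-sided exact permutation test over the 9 samples gave p = 0.0238, the smallest the design allows. Pcdh11x was at 38.1, 147 and 182 CPM before and 217, 323 and 194 CPM after injury, again without overlap. It was not called (log2 fold change 0.85 ± 0.35, adjusted p = 0.0692, edgeR) and stayed so in only 22 of 28 alternatives. Over these 28 its log2 fold change ran from 0.30 to 1.43. Pcdh7, at 397, 634 and 816 CPM before and 654, 714 and 513 CPM after injury, and Pcdh1, with means of 20.2 and 18.1 CPM, overlapped between the groups.

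**Figure D2:**
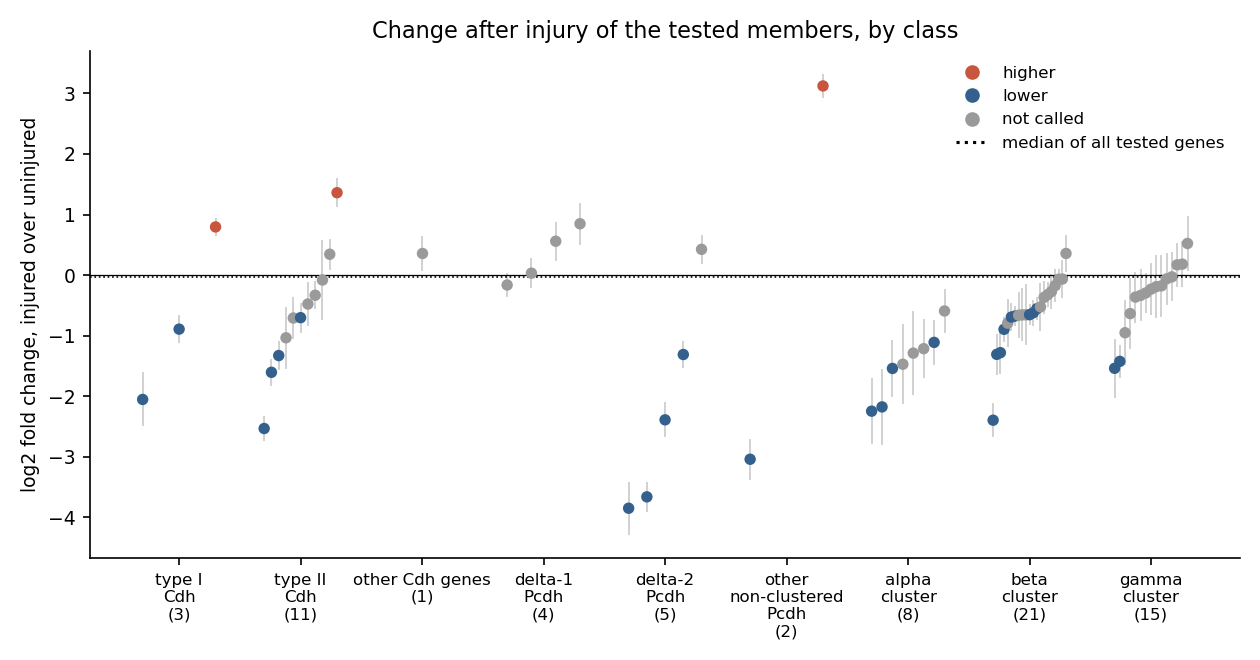
Log2 fold change of injured over uninjured samples for the 70 tested members by class (number tested in brackets), with SE bars; red is higher, blue lower and grey not called, and the dotted line is the median of all tested genes at -0.03. The delta-2 points reach -3.85, and 40 of the 44 clustered isoforms lie below 0.

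The clustered protocadherins, which all lie in tandem arrays on chromosome 18, were lower in part and higher in no case. Of 44 isoforms tested 15 were downregulated (4 of 8 alpha, 9 of 21 beta and 2 of 15 gamma) beside 22.7% of all genes, a share above that of the gamma isoforms, and none was upregulated by edgeR, by DESeq2 or by limma-voom, also at an unadjusted p under 0.05. The estimate was below 0 in 40 of the 44. Without injured library 1 the isoforms Pcdha2, Pcdha4, Pcdha9, Pcdhb19, Pcdhb22 and Pcdhga3 lost their call, 3 of them among the 4 alpha isoforms called. With similar libraries summed these isoforms and also Pcdhb7, Pcdhb10 and Pcdhb14 lost it. All 26 members that fell kept their direction there, which is no further support because the same counts were summed, and 16 were called again. Pcdhb19 kept its call in 12 of 28 alternatives. The summed level of the 21 beta isoforms was 142 to 198 CPM in uninjured and 111 to 119 CPM in injured samples and did not overlap. The alpha sum was 16.1 to 58.7 CPM before and 12.6 to 18.7 CPM after injury and overlapped, because uninjured libraries 5 and 6, at 18 and 16.1 CPM, were as low as the injured samples. The gamma sums, 22.9 to 55.1 and 33.0 to 36.9 CPM, overlapped in full.

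Pcdhb9, which spans Pcdhb10 on the same strand without an exon of identical bounds, was the isoform with the deepest fall among those above 5 CPM. It was measured at 13.4, 18.3 and 25.0 CPM before and at 4.73, 2.92 and 3.09 CPM after injury, 5.36-fold lower without overlap (log2 fold change -2.40 ± 0.28, adjusted p = 3.68e-05, edgeR), and it passed under all 28 alternatives. Pcdhgc4, a gamma isoform needed for the survival of neurons, was at 4.08, 5.32 and 6.58 CPM before and 2.63, 1.80 and 1.61 CPM after injury (log2 fold change -1.43 ± 0.28, adjusted p = 0.00133, edgeR). The other called beta isoforms fell less, Pcdhb17 from a mean of 17.9 to 11.2 CPM and Pcdhb7 from 12.3 to 7.83 CPM, and neither passed in injured cells without mCherry or in the Malat1 band. Pcdhb3, at 8.84 ± 1.10 CPM before and 8.46 ± 1.04 CPM after injury, and Pcdhb6, at 3.45 ± 0.993 and 4.64 ± 1.64 CPM, were not called.

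The alpha and gamma counts are uncertain. Each of the 13 alpha and 19 gamma members shares annotated exons with another member of its array. A 3′-end read from such an exon cannot be given to 1 isoform. None of the 21 beta members shares an exon of the same start and end, the only kind searched for. Exons that overlap in part were not looked for. The genes Pcdhb21 and Pcdhb22 overlap on the same strand, as do Pcdhb9 and Pcdhb10, so that beta reads can be ambiguous too. The beta genes are close copies of each other, and the counting could have split their reads. Each also overlaps other annotated genes on the same strand, among them Gm37388 and Gm38666.

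Single cells carried few of these isoforms. After each cell was thinned to 8000 UMIs, 83.1% ± 7.6 (SD, n = 6) of uninjured and 67.7% ± 3.0 (n = 3) of injured RGCs had a UMI of any clustered isoform. The shares overlapped, with the lowest uninjured library at 70.5% and the highest injured sample at 70.9%. The mean number of isoforms per cell was 1.88 ± 0.448 before and 1.18 ± 0.000997 after injury. The small injured SD comes from averaging injured libraries 3 and 4, which were at 1.22 and 1.15, and uninjured library 6 was at 1.22. Beta isoforms made up most of them, with 1.24 ± 0.185 per cell before and 0.806 ± 0.019 after injury. The share of cells with an alpha isoform was 26.4% ± 10.0 before and 10.6% ± 0.653 after injury, and that with a gamma isoform 28.2% ± 9.93 and 23.7% ± 2.36. These are counts of isoforms detected at 8000 UMIs per cell, not of those in use.

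**Figure D3:**
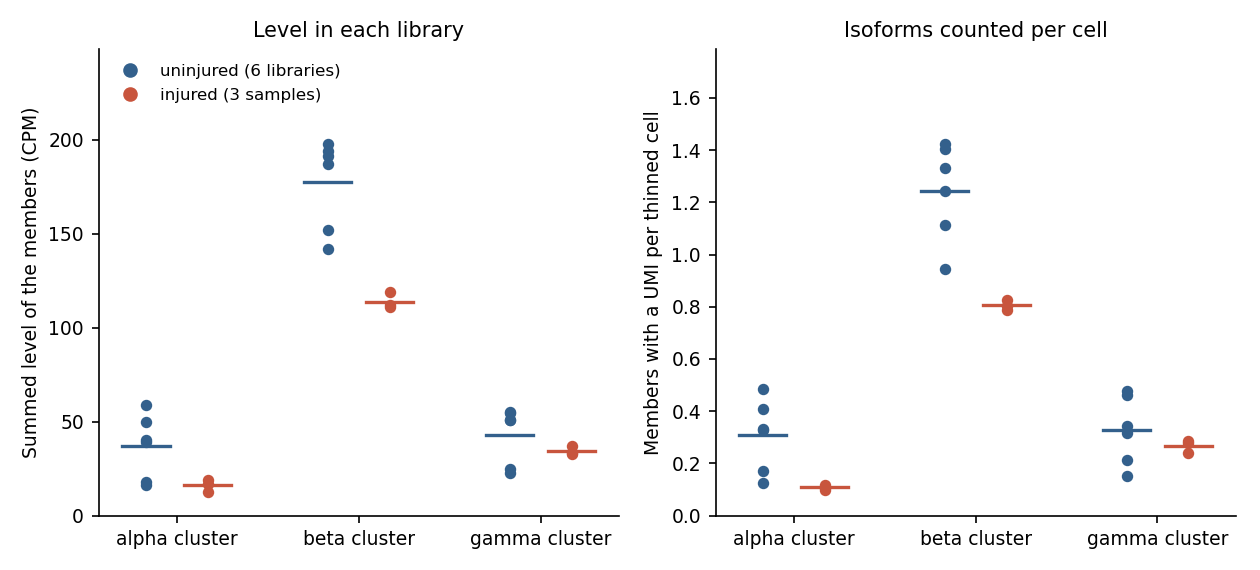
Clustered protocadherins in the 6 uninjured libraries (blue) and 3 injured samples (red), with lines at the means: left, summed CPM of each array; right, mean number of isoforms with a UMI per cell thinned to 8000 UMIs. Only the beta sum has no overlap between the groups on the left, and uninjured libraries 5 and 6 are the low alpha points at 18 and 16.1 CPM.

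How the members were spread over single cells was described at the same depth of 8000 UMIs per cell, which left out 29 uninjured and 233 injured cells of lower depth. Only RGCs were deposited, so that no cell type without the family gives the share that free RNA alone would cause. Broadly present members were Pcdh10 in 71.8% ± 9.23 (SD, n = 6), Cdh2 in 68.9% ± 5.45 and Cdh4 in 66.2% ± 7.39 of uninjured cells. At full depth the shares were 85.4%, 92.8% and 81.6%. Cdh2 had a Fano factor (variance over mean of the UMIs per cell, close to 1 for random sampling around 1 mean) of 1.27 ± 0.132.

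The 10 members with the highest Fano factors before injury were Pcdh9, Pcdh7, Cdh18, Pcdh11x, Cdh6, Pcdh15, Cdh7, Cdh20, Cdh12 and Pcdh10. A high Fano factor is not by itself a small share of cells. Pcdh10, at 2.86, was broadly present, whereas Cdh8, at 2.82, was counted in 17.7% ± 6.77 of uninjured cells. Pcdh9 stood out, with a Fano factor of 24.8 ± 6.59: it was counted in 59.3% ± 19.9 of uninjured cells, with a mean of 15.8 UMIs in each of those. After injury it was counted in 88.6% ± 1.55 of cells, with 16.4 UMIs in each. Its share in uninjured libraries ran from 26.3% to 74.5%, below that of every injured sample at 86.9% to 90.0%.

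Cdh6, at a level of 34.1 ± 19.2 CPM before injury, was counted in 9.03% ± 3.25 of uninjured cells with a Fano factor of 4.48 ± 1.8. After injury the share was 7.83% ± 1.77 and the Fano factor 2.07 ± 0.14. Cells with 5 or more Cdh6 UMIs were 0% to 2.5% of the uninjured libraries and 0% to 0.248% of the injured samples, which overlapped, and the gene was not called (adjusted p = 0.125, edgeR).

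The shares moved with the levels. The share of cells with Pcdh15 was 21.5% ± 3.95 before and 61.7% ± 4.75 after injury, and cells with 5 or more of its UMIs made up 2.67% before and 28.4% after injury. Cdh20 went from 20.4% ± 5.15 to 41.7% ± 4.25 of cells. Pcdh8 went from 37.7% ± 7.08 to 3.83% ± 0.858, Cdh11 from 40.0% ± 5.28 to 9.66% ± 1.7, Cdh18 from 58.7% ± 4.48 to 22.3% ± 2.55, and Pcdh10 from 71.8% to 30.9% ± 4.71. In each of these the injured shares lay outside the uninjured range. For Pcdh11x the share hardly moved, from 27.9% ± 7.82 to 33.1% ± 2.16, but the UMIs per cell that had any went from 3.40 to 4.83 and the Fano factor from 4.70 ± 1.26 to 18.8 ± 9.52.

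**Figure D4:**
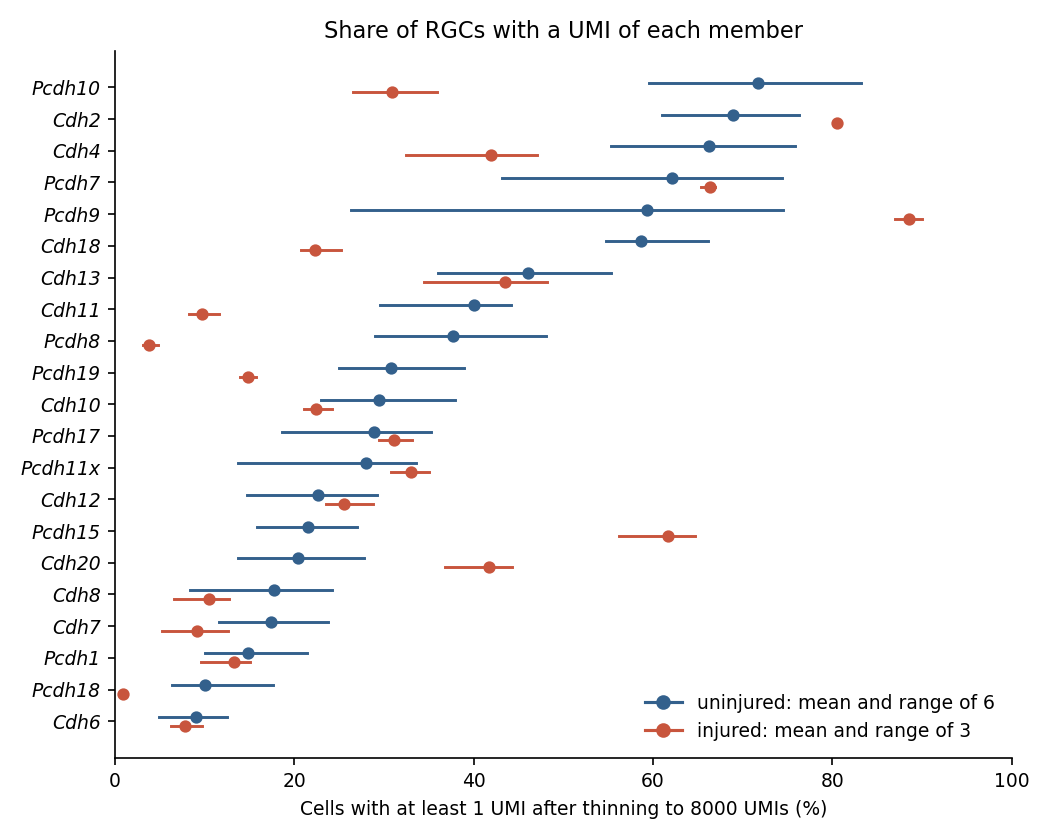
Share of RGCs with at least 1 UMI of each non-clustered member that had at least 0.1 UMI per uninjured cell, after thinning to 8000 UMIs; points are means and lines the ranges over 6 uninjured libraries (blue) and 3 injured samples (red). The injured range lies to the right for Pcdh9, Pcdh15, Cdh20 and Cdh2 and to the left for Pcdh10, Pcdh8, Cdh11 and Cdh18.

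Which cells carried which members was asked before injury by dividing uninjured cells at a marker of an RGC type (at least 2 UMIs at the equal depth) and comparing both sums within each library. Cartpt marks direction-selective RGCs, Foxp2 the F-type RGCs, Eomes the intrinsically photosensitive and related RGCs, and Neurod2 is a factor found in few RGC types; here they are genes and not names of cells. Cartpt was tested in 6 libraries with 609 positive cells and Foxp2 in 5 libraries with 261. Eomes with 33 positive cells and Neurod2 with 41 each rest on 2 libraries. Spp1 and Tbr1 had too few positive cells, in 0 libraries and 1 library with at least 10.

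Of 36 members tested 6 were higher (background 3.31% of genes) and 12 lower (background 4.35%) in Foxp2-positive cells (edgeR with the library as a block). Pcdh20 was at 25.0, 54.3, 60.5, 22.3 and 64.8 CPM in the positive and at 4.31, 8.59, 8.38, 2.22 and 2.17 CPM in the negative cells of libraries 2 to 6. It was higher in all 5 (log2 fold change 2.97 ± 0.27, adjusted p = 1.43e-16, edgeR). Pcdh7, at 1445 ± 283 CPM in positive and 505 ± 156 CPM in negative cells, was higher in all 5 as well (adjusted p = 0.0145, edgeR). Cdh4, at 331 ± 89.6 against 207 ± 69.0 CPM, was also higher in all 5 (adjusted p = 3.63e-07, edgeR).

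Pcdh15, Cdh12 and Pcdh10 passed with rises in 2, 3 and 4 of the 5 libraries only. Without uninjured library 3 the number higher was 3, and without library 4 it was 2, Cdh4 and Pcdh20 being higher under every alternative. Cdh18 was the clearest of those lower, at 75.0, 88.8, 86.1, 112 and 46.3 CPM in positive and 233, 411, 390, 272 and 272 CPM in negative cells (log2 fold change -2.09 ± 0.12, adjusted p = 5.39e-27, edgeR). Cdh11, at 31.0 ± 7.24 against 114 ± 35.3 CPM, Cdh6, at 10.1 ± 9.06 against 39.1 ± 13.7 CPM, and Pcdh9, at 443 ± 139 against 1477 ± 380 CPM, were lower in all 5 libraries. The type II cadherins Cdh7, Cdh8, Cdh10 and Cdh20 and the delta protocadherins Pcdh8, Pcdh11x, Pcdh17 and Pcdh19 made up the rest, of which Cdh20 was lower in 3 of the 5 libraries and Cdh7 and Pcdh17 in 4. Pcdh7 and Pcdh9 each lost the Foxp2 call in 3 of 11 alternatives, Cdh7, Cdh12 and Pcdh10 each kept it in 3, and in cells not thinned the fold change of Cdh7 was 0.10 on the log2 scale.

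Of 36 members tested in Cartpt-positive cells 2 were higher (background 1.16%) and 5 lower (background 1.89%). Cdh11 was at 136 ± 43.1 CPM (n = 6 libraries) in positive and 80.2 ± 22.6 CPM in negative cells, higher in 5 of 6 (log2 fold change 0.90 ± 0.11, adjusted p = 1.4e-07, edgeR). Cdh12 was at 74.9 ± 44.9 against 55.7 ± 12.7 CPM, higher in 4 of 6. The number higher was 1 without uninjured library 3 or without library 4. Cdh12 lost its call in 5 of 11 alternatives, also with 1 UMI of the marker, in cells not thinned and without cells carrying other markers. Pcdh20, Cdh8, Pcdh7, Pcdh15 and Cdh13 were lower in all 6 libraries, Pcdh20 at 4.88 ± 2.21 against 15.9 ± 7.93 CPM. Without cells carrying markers of other classes Cdh8 and Pcdh15 lost this call, and Cdh13 lost it in 4 of 11 alternatives. Cdh6, known from direction-selective RGCs, was at 33.8 CPM in positive and 28.0 CPM in negative cells and did not pass (adjusted p = 0.234).

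Cells with Eomes had 4 of 41 members higher (background 3.17%) and 5 lower (background 2.94%). In libraries 3 and 4 Cdh7 was at 183 and 212 CPM in positive and at 44.7 and 46.3 CPM in negative cells (log2 fold change 2.08 ± 0.28, adjusted p = 7.55e-12, edgeR), but it lost its call with 1 UMI of the marker and in cells not thinned (adjusted p up to 0.299). Pcdh19, at 202 and 256 against 60.2 and 71.3 CPM, Cdh18 and Pcdh9 were also higher in both. Pcdh10 was at 48.1 and 31.2 CPM in positive and 331 and 376 CPM in negative cells (adjusted p = 1.4e-17, edgeR), and Cdh4, Pcdh7, Pcdh8 and Cdh13 were lower in both. By DESeq2 Cdh18, Pcdh7, Pcdh8 and Cdh13 lost their calls, Cdh13 also in cells not thinned, and Pcdh9 lost its call with 1 UMI of the marker.

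Cells with Neurod2 had 3 of 34 members higher (background 0.552%) and 4 lower (background 1.07%). In libraries 5 and 4 Pcdh9 was at 2817 and 3188 CPM in positive and 1338 and 1456 CPM in negative cells (adjusted p = 8.34e-05, edgeR), Pcdh19 at 154 and 179 against 50.5 and 72.4 CPM, and Cdh20 at 115 and 192 against 43.2 and 78.7 CPM. Cdh4 was at 9.62 and 44.6 CPM in positive and 186 and 339 CPM in negative cells (adjusted p = 2.02e-13, edgeR), and Cdh12, Pcdh11x and Cdh18 were lower too. Pcdh11x lost its call in 3 of 5 alternatives, Cdh12 in 2, and each of the 3 higher members in 1, Pcdh9 in cells not thinned and the others by DESeq2.

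**Figure D5:**
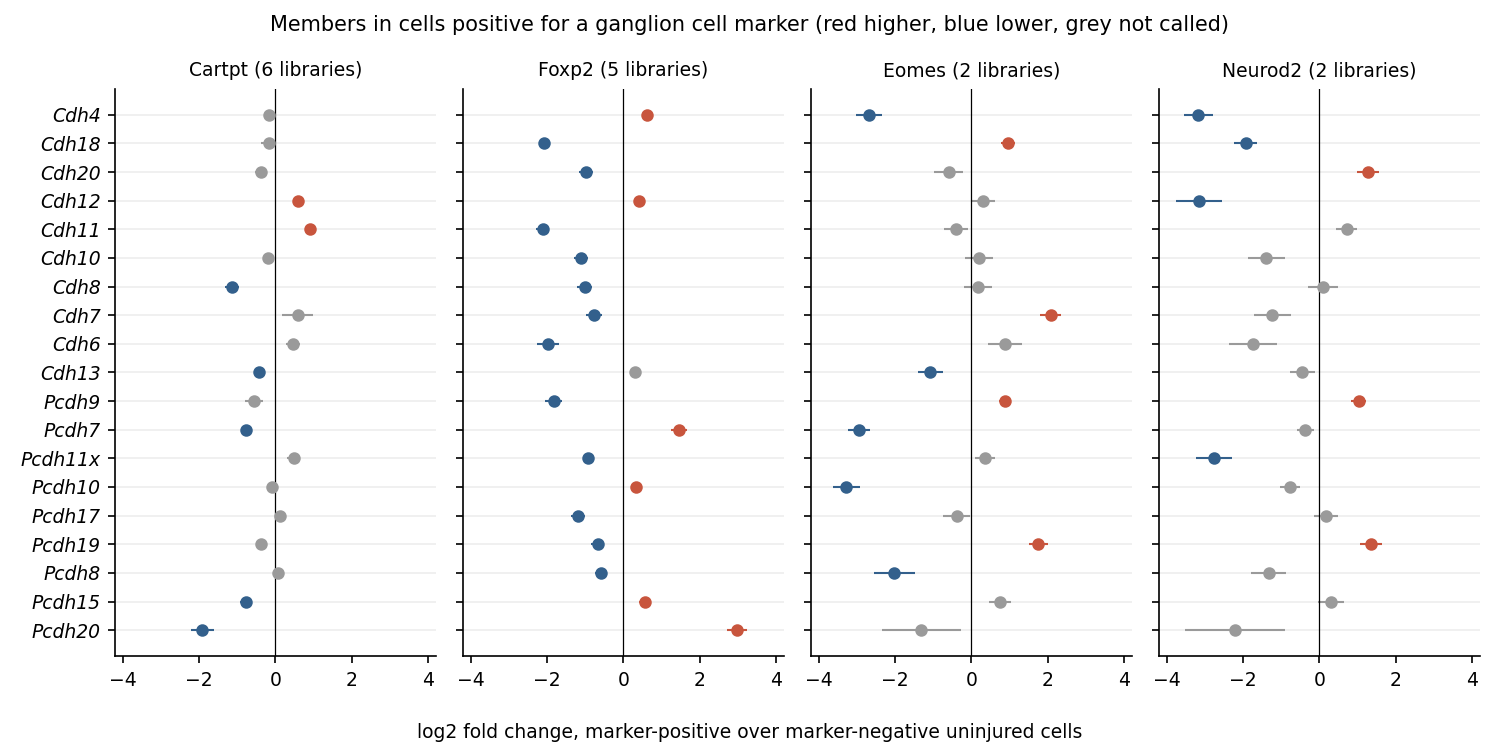
Log2 fold change, with SE bars, of the members called in at least 1 comparison, between uninjured cells positive and negative for Cartpt, Foxp2, Eomes or Neurod2; red is higher, blue lower and grey not called. Pcdh20 at 2.97 and Cdh18 at -2.09 in the Foxp2 panel, and Cdh7 at 2.08 in the Eomes panel, are the values given in the text.

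By mean share, cells positive for Cartpt, Foxp2, Eomes, Neurod2 or Tbr1 were fewer after injury and those positive for Spp1 more. Cartpt-positive cells were 36.5% ± 2.44 (SD, n = 6) of uninjured and 3.44% ± 1.03 (n = 3) of injured cells. Foxp2-positive cells were 14.5% ± 3.99 and 7.68% ± 1.86, with ranges of 9.47% to 19.2% and 6.37% to 9.80% that overlapped. Neurod2-positive cells were 3.74% ± 1.43 and 0.109% ± 0.189. Spp1-positive cells were 1.12% ± 1.08 and 4.23% ± 2.85, with overlap. The level of Cartpt itself went from 564 to 41.7 CPM and that of Foxp2 from 102 to 43.0 CPM. For a level summed over a library, fewer cells of a type and less RNA per cell cannot be told apart. The 10 members called after injury with at least 20 CPM were also measured within Foxp2-positive cells, within Cartpt-positive cells and within the cells with neither. The comparison was chosen after seeing the data and is given without a test. Cells that lost a marker after injury can count among those with neither, so that the groups need not hold like cells before and after. The comparison therefore cannot tell fewer cells from less RNA per cell either. Injured library 4 had 9 Cartpt-positive cells, under the limit of 10, so that injured 3 alone stood for the pair there.

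Pcdh15, Pcdh8 and Pcdh10 differed between the conditions within all 3 groups of cells without overlap. The 10 members had been picked by their change over whole libraries, of which these cells are part, so that the separation is no independent support. The share of all genes without overlap was not counted within these groups, and was 42.9% over whole libraries. Pcdh15 was at 81.9 ± 45.7 and 599 ± 291 CPM in Foxp2-positive, at 45.8 ± 20.4 and 234 ± 91.2 CPM in Cartpt-positive and at 75.4 ± 14 and 544 ± 67.1 CPM in the remaining cells, before and after injury. Pcdh10 was at 363 ± 121 and 88.9 ± 18.1, at 315 ± 105 and 84.8 ± 32.2, and at 325 ± 128 and 58.6 ± 9.71 CPM. Pcdh8 went from 46.0 ± 11.4 to 4.44 ± 4.19 CPM in the first, from 84.8 ± 30.1 to 7.58 ± 6.56 CPM in the second and from 78.6 ± 18.6 to 4.8 ± 1.17 CPM in the third, the injured values of the first and second resting on a few UMIs.

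Cdh18 was at 81.5 ± 23.8 CPM before and 6.23 ± 9.10 CPM, a few UMIs, after injury in Foxp2-positive cells, without overlap, but at 231 ± 111 and 193 ± 78.4 CPM, with overlap, in Cartpt-positive cells. Cdh11, Pcdh19, Cdh20 and Cdh2 likewise did not overlap in Foxp2-positive cells and in cells with neither marker, and overlapped in Cartpt-positive cells. The injured Foxp2-positive values of Cdh11 and Pcdh19, at 0 to 20.8 CPM each, also rest on a few UMIs. Cdh4 and Cdh7 overlapped in both kinds of marked cells, and Cdh7, lower over whole libraries, was at 56.6 ± 37.6 CPM before and 112 ± 71.5 CPM after injury in Cartpt-positive cells. As few as 10 Cartpt-positive cells stood for a sample, and the difference between the groups of cells was not tested.

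The partners of the family were read from lists of known genes. Their counts stand beside the 21.3% of all genes that were higher and the 22.7% that were lower, and no list was tested against them. Of 15 catenins and junction adaptors 5 were higher and 2 lower. The catenin Jup, plakoglobin, which can stand in for beta-catenin, went from 62.7 ± 5.37 to 188 ± 26.3 CPM (log2 fold change 1.59, adjusted p = 1.41e-06, edgeR), and Ctnnal1 from 34.9 ± 8.99 to 86.2 ± 6.54 CPM. Arvcf and Ctnnd1, p120 catenins that hold cadherins at the surface, rose by 1.22 and 0.79 on the log2 scale. Ctnnb1, beta-catenin, and Ctnna2, the alpha-catenin of neurons, were not called, at 124 ± 19.4 and 117 ± 4.49 CPM and at 827 ± 142 and 758 ± 110 CPM.

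Among other genes of the superfamily 1 of 13 tested was higher and 6 lower. The calsyntenins Clstn1 and Clstn2, synaptic organizers, were lower, Clstn1 from 369 ± 55.5 to 137 ± 11.1 CPM (adjusted p = 3.53e-05, edgeR), and so was Fat3, a giant cadherin that shapes dendrites in the retina, from 364 ± 74.2 to 174 ± 36.2 CPM (adjusted p = 0.00126, edgeR). Ret, a receptor kinase with cadherin repeats, was the one higher. Of 3 nectins tested, Nectin3 was higher, from 6.79 ± 2.09 to 28.4 ± 6.34 CPM, and Nectin1 and Nectin2 lower.

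Of 9 tested genes of the WAVE complex, the partner of the delta-2 protocadherins, 3 were higher and 2 lower, with Wasf2 from 14.7 ± 1.58 to 37.2 ± 3.74 CPM and Wasf3 from 91.0 ± 11.2 to 48.1 ± 8.05 CPM. Of 9 genes that shed and cleave cadherins 3 were higher and 2 lower, among them Adam10, the protease that sheds Cdh2, from 58.2 ± 7.28 to 89.6 ± 3.47 CPM (adjusted p = 0.00166, edgeR). Of 12 tested regulators of the clustered genes 1 was higher, Setdb1, and 1 lower, Wiz, while Ctcf, at 66.9 ± 11.2 and 71.5 ± 0.389 CPM, and the cohesin subunit Rad21 were not called.

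Fits with fewer injured samples or cells called fewer of the members that fell. With injured 1 and 2 alone 3 members were higher and 17 lower, with injured 3 and 4 as a lone sample 1 and 10, and in injured cells without mCherry 5 and 17. Without cells holding UMIs of 3 or more markers of another retinal class the counts were 5 and 20, at equal depth 4 and 18, and in the Malat1 band 3 and 13, with fewer members tested in each. All 29 called members kept their direction in each of these where they had a value. The fits reuse counts by which the members were called, so that the kept direction is no independent support. Of the 26 that fell, 19, 16 and 10 were called again in the last 3. Under every alternative with a value 7 were called: Pcdh8, Pcdh10, Pcdh18, Pcdh20, Cdh11, Pcdhb9 and Pcdhgc4.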

How the data were processed

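RGCs of 6 uninjured and 4 injured libraries were profiled with the 10X Chromium 3′ kit. The deposited counts are UMIs per gene and cell, made by the authors with Cell Ranger and mm39; the submitters' processing notes name version 7.0.1, and the kit and version differ between the labels and the methods of the study. The methods say that Cell Ranger ran at its defaults, which for intronic reads differ between the versions named, so that the use of intronic reads, and of strand, is not given in the sources used here. The authors kept cells with at least 500 genes, at most 150000 UMIs and at most 20% mitochondrial UMIs.

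Counts were summed per library and tested with edgeR 4.0.16 (filterByExpr, TMM, robust quasi-likelihood) in R 4.3.3, adjusted over all genes at a threshold of 0.05; injured 3 and 4 were averaged with rounding. Cells were thinned to 8000 UMIs without replacement for shares, Fano factors and marker comparisons, in which the library was a block and needed 10 cells of each kind. Exact permutation tests used log2 CPM. DESeq2 1.42.0, limma 3.58.1 and other normalizations, filters, cells and samples were alternatives. Annotation came from GENCODE on GRCm39. Doublets were not called.

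The members, lists and tests were chosen with earlier results of these data known. Any member could be named; those described in most detail were the 12 members with the highest uninjured CPM, up to 10 called rises and 10 falls with at least 5 CPM, the 10 highest Fano factors, and up to 5 members per marker. Partner genes were named when called with at least 20 CPM, up to 4 a list; others were chosen after their values were seen.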

Additional observations from a re-analysis of the deposited data

Results flagged for a closer look

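In 3 of 80 members 1 of the 6 uninjured libraries stood apart from the others by Dixon's criterion, the ratio of its gap to the nearest library over the whole range (critical value 0.625). Chance flags about 1 in 20 groups, so that this number is no more than chance would give. Pcdh11x was at 38.1 CPM in uninjured library 1 and at 140 to 182 CPM in the other 5 (ratio 0.708), a library that also had a low level of Pcdh9 and Cdh6. Pcdhb17 was at 20.8 CPM in library 3 and 16.7 to 17.9 CPM in the others (ratio 0.72), and Pcdhb11 at 7.75 CPM in library 1 and 3.91 to 4.96 CPM in the others (ratio 0.725).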

How the results depend on the processing

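The count of members higher after injury was 3 and became 1 with injured 3 and 4 alone, and 5 in injured cells without mCherry and without cells with markers of other classes. The count lower was 26 and became 15 with at least 10 counts in every sample, 13 in the Malat1 band, 17 with injured 1 and 2 alone, 10 with injured 3 and 4 alone, 17 in injured cells without mCherry and 16 with similar libraries summed. The fit with injured 3 and 4 has 1 injured sample, assumed to vary like the uninjured libraries. The 29 called members kept their direction in it, but that sample was also part of the fit that called them. Leaving out each library gave 3 to 4 higher and 19 to 29 lower. Library totals alone moved the median log2 fold change of all genes to -0.10 and of the members to -0.71, with 3 and 26 called. The cause of these shifts was not tested. The injured 1 and 2 and injured 3 and 4 alternatives were chosen after seeing the data.

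Members higher in Cartpt-positive cells numbered 2, and 0 by DESeq2 (3 at an unadjusted p under 0.05), which gave an adjusted p for 5 of 36 members and for neither of these, 1 with 1 UMI of the marker, 1 in cells not thinned and 1 to 3 leaving out each library; those lower numbered 5, 1 by DESeq2, which gave an adjusted p for 1 of the 5, 8 not thinned and 4 to 5. In Foxp2-positive cells the 6 higher became 3 by DESeq2, 3 with 1 UMI, 3 not thinned and 2 to 6, and the 12 lower 6 not thinned and 8 to 12. In Eomes-positive cells the 4 higher became 7 not thinned and the 5 lower 2 by DESeq2. In Neurod2-positive cells the 3 higher became 1 by DESeq2 and 7 not thinned, and the 4 lower 2 by DESeq2, 9 with 1 UMI and 9 not thinned. In cells not thinned Cdh7 in Foxp2-positive cells had a log2 fold change of 0.10 in place of -0.77, and Pcdh18 in Neurod2-positive cells 0.54. Leaving out a library, and 3 UMIs of the marker, could not be run for Eomes and Neurod2, nor for Eomes the cells without other markers.

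Libraries 1 to 3 of each condition gave 3 higher and 30 lower without and 4 and 32 with the replicate number as a block; deviations of same-numbered libraries were not correlated (r of -0.04, 0.02 and -0.03) and none correlated best with its own number, so the number is not taken as a pairing.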

Other observations

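An uninjured RGC thinned to 8000 UMIs carried UMIs of 7.84 ± 0.702 (SD, n = 6 libraries) of the 27 non-clustered members and an injured one 6.69 ± 0.267 (n = 3). The highest number in a single uninjured cell was 17.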
